A study of Homo sapiens with 8 samples.

Results

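The endoplasmic reticulum (ER) folds secreted and membrane proteins, and 33 genes for its chaperones, folding enzymes and stress sensors were followed in leukaemia cells that had escaped degradation of CTCF. The 33 genes were taken by symbol, for their known functions, with earlier results of these data known. All 33 were found among the 60754 genes of the expression table, and all 33 passed the filter on low values that left 15614 genes for testing.

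SEM is an established human B-cell acute lymphoblastic leukaemia line with a KMT2A rearrangement. In the cells used here both CTCF alleles carried a miniAID degron and the mClover3 fluorescent protein, and the cells carried OsTIR1(F74G), the plant F-box protein that marks a miniAID-tagged protein for degradation when the auxin analogue 5-Ph-IAA is added, from a vector with the MND promoter, a zeocin resistance gene and RFP. Each of the 2 clones, C17.2 and C3.2, grew from a single cell, and parental cells of each clone, which carry the same alleles and vector, were left untreated. Resistant cells came from the same clone after 36 days in 1 µM 5-Ph-IAA and 100 µg/ml zeocin, followed by withdrawal of both drugs before RNA was taken. By the study's account the resistant cells of C17.2 carried a nonsense change in CTCF and made a shortened CTCF without the degron beside the tagged CTCF, which came back once the drugs were removed and could still be degraded, whereas those of C3.2 carried a missense change in the degron and made full-length CTCF that was no longer degraded. Each group of 2 libraries stands for 1 clone, so a difference between the clones cannot be told apart from a difference between their escape routes or between the 2 series of library numbers in the sample titles, which coincide with the clones.

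Newly made proteins enter the ER through the SEC61 channel and are bound by HSPA5 (BiP), an HSP70 chaperone whose cycle is driven by J-domain co-chaperones. Glycoproteins are held by the lectins calnexin and calreticulin, disulfide bonds are made and reshuffled by protein disulfide isomerases that ERO1 oxidases recharge, and prolyl bonds are turned by cyclophilins and FKBPs. When unfolded protein accumulates, the sensors IRE1 (ERN1), ATF6 and PERK (EIF2AK3) start the unfolded protein response (UPR), in which the factors XBP1, cleaved ATF6 and ATF4 raise chaperone, degradation and stress genes. Cells that secrete much protein, such as plasma cells, depend on this programme.

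Expression was given as TPM, a transcript abundance corrected for length and scaled to a fixed total per library, which keeps no sequencing depth, so the depth of the libraries is unknown. Library scale factors lay between 0.893 and 1.16 and the Pearson correlation of replicate libraries over the tested genes between 0.968 and 0.979. CTCF, the tagged gene, was transcribed in all 8 libraries, at 33.7 to 35.4 TPM in parental and 51.1 to 54.7 TPM in resistant libraries of C17.2 (log2 0.44, adjusted p = 0.000795) and at 32.2 and 32.3 against 44.2 and 41.5 TPM in C3.2 (log2 0.34, adjusted p = 0.0068). Of 8 B lineage markers 7 reached 1 TPM, with a sum of 553 to 747 TPM per library, the exception being BLNK. The sum was 696 to 747 TPM in parental and 640 to 644 TPM in resistant libraries of C17.2, and 692 to 735 against 553 to 589 TPM in C3.2. Among these markers IGLL1, a part of the pre-B-cell receptor, fell from 89.6 and 80.6 to 20.1 and 20.5 TPM in C17.2 and from 142.8 and 166.0 to 29.96 and 31.71 TPM in C3.2 (log2 -2.16 and -2.35). CD79B fell too (-1.51 and -1.03), whereas PAX5 rose in C3.2 (0.27, adjusted p = 0.0229). Of 6 plasma cell markers only IRF4 and MZB1 reached 1 TPM, and the list's sum was 93.4 to 98.0 TPM in parental against 83.8 to 87.3 TPM in resistant libraries of C17.2 and 122 to 127 against 133 to 136 TPM in C3.2. T lineage markers summed to at most 0.25 TPM, erythroid markers to at most 0.52 TPM and myeloid markers to at most 3.21 TPM. The part of these markers in the results was not tested.

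In C17.2 more of the 33 genes rose than fell in resistant cells, and ERN1, ATF6, ATF6B and XBP1 were among those that fell. The ATF6 and ATF6B calls were fragile. Of the 33 genes 19 were higher and 6 lower in resistant than in parental cells, and 8 passed in neither direction (limma, adjusted p under 0.05). Over all 15614 genes 13.4% were higher and 13.9% lower. The share of the 33 genes that was higher thus stood above the background, and the share that was lower was near it. The 33 genes were chosen with earlier results of these data known, so these shares are no independent test. The median log2 fold change of the 33 genes was 0.33, against 0.00 for all tested genes. Among the 7002 tested genes with a mean of at least 10 TPM, 19.5% were higher and 16.6% lower, and among the 24 genes of the set at that level 16 were higher (66.7%) and 3 lower (12.5%). Bulk RNA cannot tell fewer cells of a kind from less RNA per cell, and no source says whether replicate libraries came from separate cultures, so the p-values measure the spread between these libraries, which may be technical. In C3.2 only HSPA5 was higher and only CANX and XBP1 were lower, with background shares of 4.46% and 6.9%, and the median of the 33 genes was 0.00085. The shares in C3.2 were thus near the background. The second resistant library of C3.2 was lower than the first for several genes, and with the first left out SEC63 (log2 -0.49), SDF2L1 (-0.36) and PDIA3 (-0.43) passed as lower and PDIA4 (0.23) as higher. In C17.2 TXNDC11 passed without the second parental library (0.35), PDIA5 without the first resistant library (0.83) and ERO1A without the second resistant library (-0.35).

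**Figure D1:**
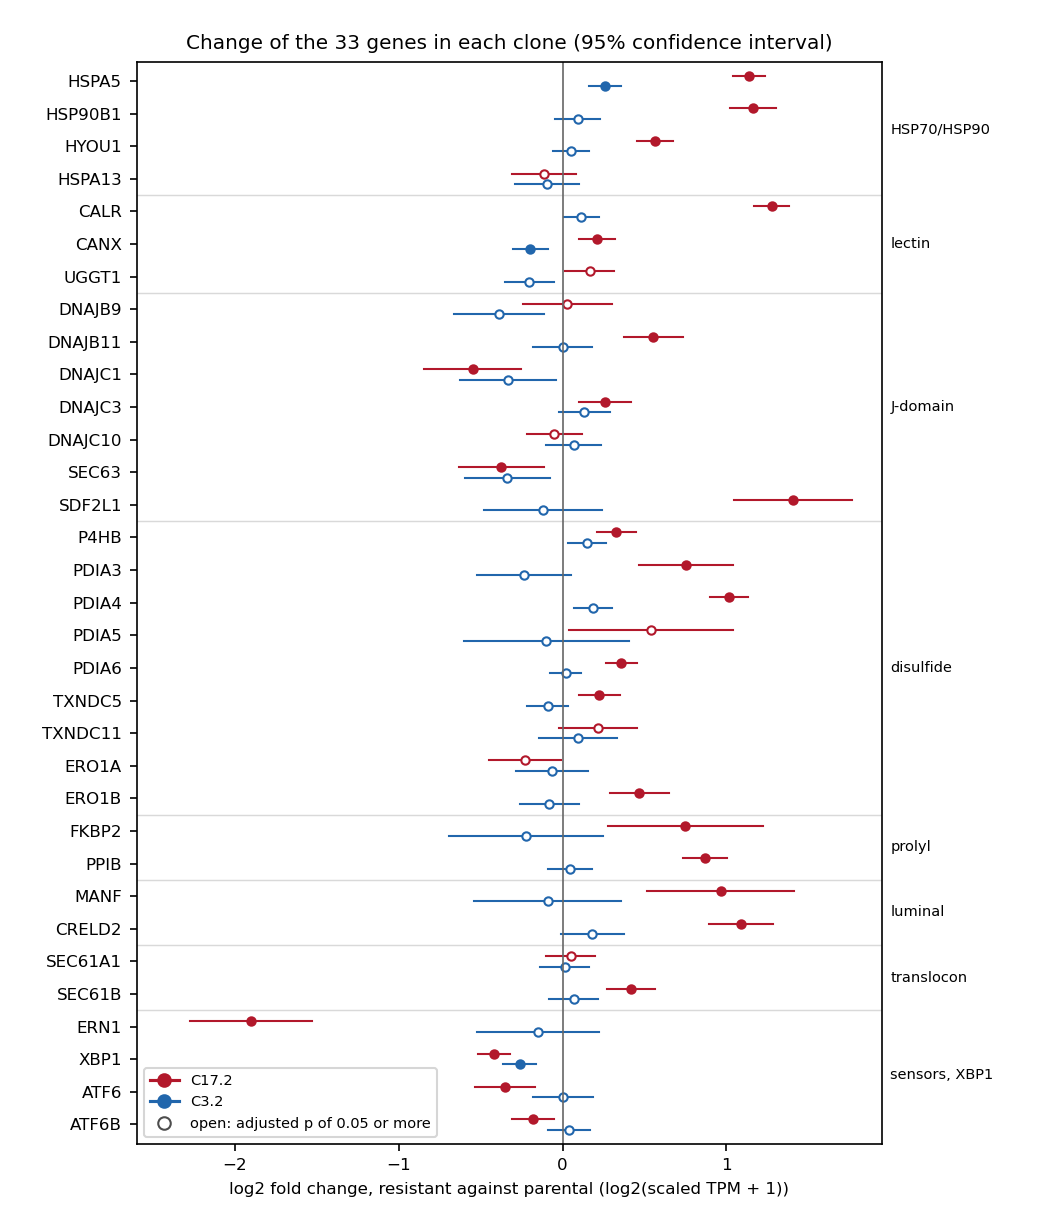
Log2 fold change of resistant against parental cells on the log2(scaled TPM + 1) scale for the 33 genes, in C17.2 (red) and C3.2 (blue). Points are estimates from 2 libraries a group, bars are 95% confidence intervals and filled points passed an adjusted p of 0.05. In C17.2, 19 filled points lie to the right of 0 and 6 to the left, and in C3.2, 1 lies to the right and 2 to the left.

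The HSP70 and HSP90 chaperones held some of the strongest rises, with 3 of 4 genes higher in C17.2, against 13.4% of all genes. HSPA5, the main ER HSP70 and the brake on the sensors, was at 26.9 and 24.7 TPM in the parental libraries of C17.2 and at 63.4 and 66.5 TPM in the resistant libraries. The groups were far apart, and HSPA5 rose 2.20-fold on the scale of scaled TPM + 1 used for all fold changes (log2 1.14 ± 0.040 SE, adjusted p = 2.39e-05). In C3.2 HSPA5 was at 45.5 and 48.6 TPM in parental and 60.3 and 57.8 TPM in resistant libraries. This rise of 1.20-fold (log2 0.26, adjusted p = 0.0137) was also past the threshold but was lost without the first (adjusted p = 0.082) or the second (adjusted p = 0.054) parental library of that clone and in a model of that clone alone (adjusted p = 0.085). HSP90B1 (GRP94), the ER HSP90, was at 76.1 and 77.5 TPM in parental and 185.5 and 202.1 TPM in resistant libraries of C17.2, a 2.24-fold rise (log2 1.16 ± 0.057, adjusted p = 7.26e-05). In C3.2 its levels were 149.2 and 145.8 against 170.6 and 159.0 TPM. Both resistant libraries were the higher before scaling, as for 36.6% of all tested genes. The log2 difference of 0.09 (95% interval -0.05 to 0.23) missed the threshold. HYOU1 (GRP170), which exchanges the nucleotide of HSPA5, was at 25.3 and 24.2 TPM in parental and 41.9 and 40.9 TPM in resistant libraries of C17.2 and rose 1.48-fold (log2 0.56, adjusted p = 0.000502). Its 4 libraries of C3.2 lay between 28.7 and 33.1 TPM. HSPA13, a further HSP70 of the ER, lay between 9.48 and 13.3 TPM in all 8 libraries and passed in neither clone.

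**Figure D2:**
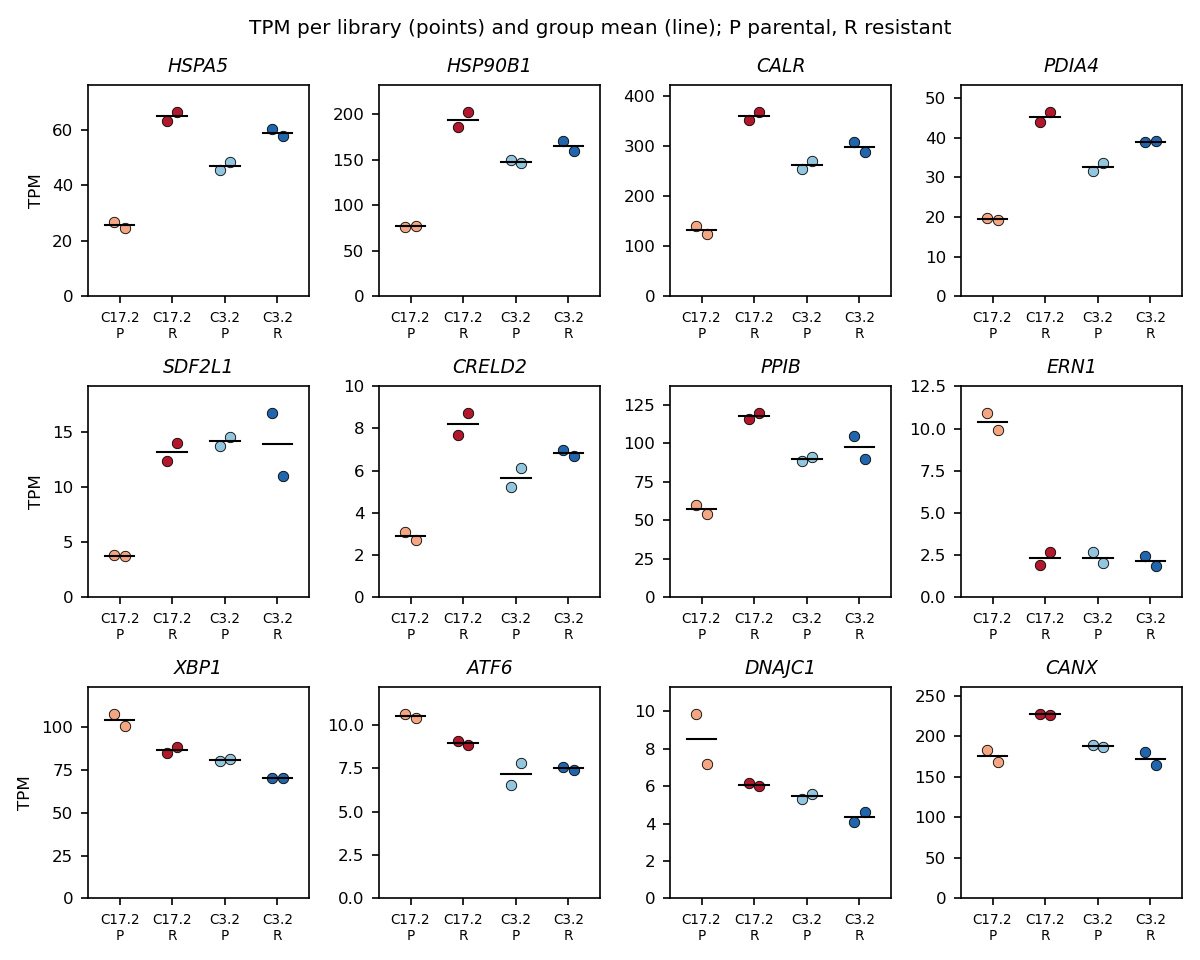
Deposited TPM of 12 of the genes in each library (points) with the mean of each group of 2 libraries (line), for parental (P) and resistant (R) cells of C17.2 and C3.2. HSPA5, HSP90B1, CALR, PDIA4, SDF2L1, CRELD2 and PPIB are lowest in the parental libraries of C17.2, and ERN1 stands at 9.92 and 10.9 TPM there against 1.85 to 2.71 TPM in the other 6 libraries.

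Of the lectin group, calreticulin (CALR), the soluble lectin chaperone and the most abundant of the 33 genes at a mean of 263 TPM, changed most. It was at 140.0 and 125.1 TPM in parental and 352.3 and 368.1 TPM in resistant libraries of C17.2, a 2.42-fold rise (log2 1.28 ± 0.044, adjusted p = 2.2e-05). In C3.2 CALR was at 254.1 and 271.2 TPM in parental and 307.9 and 287.7 TPM in resistant libraries. That difference of log2 0.11 missed the threshold (adjusted p = 0.153) but passed with scaling over protein-coding genes (log2 0.22, adjusted p = 0.024). Calnexin (CANX), the membrane-bound lectin, moved in opposite directions in the clones. It was at 182.7 and 168.5 against 227.3 and 226.8 TPM in C17.2 (log2 0.21, adjusted p = 0.017) and at 189.1 and 187.0 against 180.2 and 164.0 TPM in C3.2 (log2 -0.20, adjusted p = 0.0424). Both CANX calls were weak. The rise in C17.2 was lost without either parental library (adjusted p = 0.061 and 0.081) or the first resistant library (adjusted p = 0.068), and the fall in C3.2 was lost under 13 of 17 alternatives, among them leaving out any library but the first resistant library of that clone. UGGT1, which re-tags misfolded glycoproteins for the lectins, was at 21.2 to 22.2 against 27.0 to 27.8 TPM in C17.2 and at 17.3 to 19.8 against 15.8 to 17.8 TPM in C3.2 and passed in neither. It did pass in C17.2 on TPM as deposited (log2 0.32, adjusted p = 0.030) and with scaling over protein-coding genes (0.25, adjusted p = 0.024). A model of that clone alone also called it (0.17, adjusted p = 0.047).

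The J-domain proteins and their partner SDF2L1, which drive and assist HSPA5, did not move as a block in C17.2. Of these 7 genes, SDF2L1 included, 3 were higher, 2 lower and 2 in neither direction. Over all genes tested in C17.2, 13.4% were higher and 13.9% lower. SDF2L1, the partner of DNAJB11 that keeps clients soluble, had the largest positive fold change of the 33 genes. It was at 3.82 and 3.78 TPM in parental and 12.4 and 14.01 TPM in resistant libraries of C17.2 (log2 1.41 ± 0.15, 2.65-fold, adjusted p = 0.00128). In C3.2 the parental libraries already held 13.8 and 14.6 TPM and the resistant libraries 16.7 and 11.1 TPM, so the groups overlapped. DNAJB11 (ERdj3), which hands clients to HSPA5, was at 15.7 and 16.0 against 26.0 and 27.2 TPM in C17.2 (log2 0.56, adjusted p = 0.00307) and at 20.1 and 20.1 against 23.2 and 19.1 TPM in C3.2. DNAJC3 (p58IPK), an HSPA5 co-chaperone, was at 4.38 and 4.37 against 6.06 and 6.09 TPM in C17.2 (log2 0.26, adjusted p = 0.0292) and at 4.26 and 4.45 against 5.43 and 4.77 TPM in C3.2. The DNAJC3 call was lost without any of the 4 libraries of C17.2 (adjusted p = 0.072 to 0.13) or either parental library of C3.2 (adjusted p = 0.056).

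The falling co-chaperones were both membrane proteins. SEC63, which couples HSPA5 to the translocation channel, was at 55.1 and 54.2 against 44.5 and 49.5 TPM in C17.2 (log2 -0.37, adjusted p = 0.0452) and at 44.6 and 41.9 against 40.8 and 31.1 TPM in C3.2 (log2 -0.34, adjusted p = 0.0996). DNAJC1 was at 9.85 and 7.20 against 6.19 and 5.98 TPM in C17.2 (log2 -0.55, adjusted p = 0.019) and at 5.30 and 5.59 against 4.06 and 4.60 TPM in C3.2 (log2 -0.33, adjusted p = 0.138). Both falls were fragile. SEC63 lost its call without any of the 4 libraries of C17.2 (adjusted p = 0.12 to 0.19) or either parental library of C3.2 (0.081), and DNAJC1 without the first parental (log2 -0.39, adjusted p = 0.087) or either resistant library (0.077 and 0.11) of C17.2. DNAJB9 (ERdj4), which leads misfolded clients to degradation, lay between 3.41 and 7.07 TPM and DNAJC10 (ERdj5), a disulfide reductase, between 22.2 and 37.1 TPM over the 8 libraries, and neither passed in either clone.

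Of the 9 disulfide isomerases and oxidases 6 were higher in C17.2 and none was lower. Over all genes tested in C17.2, 13.4% were higher and 13.9% lower. PDIA4 (ERp72) was at 19.8 and 19.3 against 44.1 and 46.5 TPM, a 2.02-fold rise (log2 1.01 ± 0.048, adjusted p = 6.59e-05). In C3.2 PDIA4 was at 31.7 and 33.5 against 38.9 and 39.2 TPM, and its log2 difference of 0.19 just missed the threshold (adjusted p = 0.0569). It passed there under every other scaling tried (log2 0.24 to 0.29, adjusted p = 0.017 to 0.046). PDIA3 (ERp57), which works with the lectin chaperones, was at 71.8 and 65.9 against 128.9 and 132.5 TPM in C17.2 (log2 0.76 ± 0.12, adjusted p = 0.00539) and at 112.2 and 105.8 against 113.7 and 82.6 TPM in C3.2. Its near copy, the pseudogene PDIA3P1, was at 7.38 and 7.38 against 12.6 and 13.2 TPM in C17.2, and how reads were shared between the pair was not tested. The PDIA3 call was lost without the second parental library of C17.2 (log2 0.74, adjusted p = 0.050). The remaining isomerases moved less. P4HB (PDI itself) was at 155.8 and 153.4 against 213.6 and 221.6 TPM in C17.2 (log2 0.33, adjusted p = 0.00427) and at 127.6 and 137.5 against 153.5 and 154.5 TPM in C3.2, where the log2 difference of 0.15 missed the threshold. With scaling over protein-coding genes P4HB passed in C3.2 (log2 0.25, adjusted p = 0.024). PDIA6 (P5) was at 98.3 and 94.6 against 136.4 and 140.8 TPM in C17.2 (log2 0.36, adjusted p = 0.0015) and at 118.6 and 120.4 against 127.4 and 126.2 TPM in C3.2.

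TXNDC5 (ERp46) was at 27.5 and 26.5 against 36.3 and 34.6 TPM in C17.2 (log2 0.23, adjusted p = 0.022) and at 31.6 and 33.6 against 32.2 and 31.8 TPM in C3.2. The TXNDC5 call was lost without either parental (adjusted p = 0.10 and 0.073) or the first resistant library (0.076) of C17.2. TXNDC5 shares 60.9% of its exon bases with the read-through gene BLOC1S5-TXNDC5, which stayed at or below 0.66 TPM. The paralogous oxidases that recharge the isomerases parted. ERO1B was at 3.53 and 3.53 against 6.13 and 5.67 TPM in C17.2 (log2 0.47, adjusted p = 0.00572) and lay between 3.21 and 3.43 TPM in the 4 libraries of C3.2. ERO1A, at 30.7 and 30.1 against 25.9 and 32.1 TPM in C17.2, overlapped between groups and did not pass. PDIA5, the lowest of the 33 genes at a mean of 1.37 TPM, was at 1.01 and 1.35 against 1.75 and 3.28 TPM in C17.2 and did not pass, and neither did TXNDC11 at 7.86 and 9.16 against 11.5 and 11.0 TPM. On TPM as deposited TXNDC11 passed in C17.2 (log2 0.36, adjusted p = 0.016).

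Both prolyl isomerases and both small luminal proteins rose in C17.2, where 13.4% of all genes tested were higher. PPIB (cyclophilin B) was at 60.2 and 54.1 against 115.9 and 119.6 TPM (log2 0.87 ± 0.056, 1.83-fold, adjusted p = 0.000194) and at 88.6 and 91.1 against 104.6 and 90.0 TPM in C3.2. A part of PPIB, 26.6% of its exon bases, overlaps SNX22 on the opposite strand, and SNX22 was at 23.3 and 20.8 against 15.04 and 14.56 TPM in C17.2. FKBP2, an ER FKBP, was at 7.72 and 8.65 against 15.5 and 16.9 TPM in C17.2 (log2 0.75 ± 0.20, adjusted p = 0.0327) and at 11.5 and 15.4 against 14.8 and 9.41 TPM in C3.2. FKBP2 shares 71.0% of its exon bases with the gene AP001453.5 on the same strand, which stayed at or below 0.76 TPM. CRELD2 was at 3.10 and 2.72 against 7.70 and 8.72 TPM in C17.2 (log2 1.09 ± 0.080, adjusted p = 0.000335) and at 5.21 and 6.12 against 6.98 and 6.71 TPM in C3.2. MANF, a secreted protein released under ER stress that stabilises HSPA5 with its clients, was at 29.3 and 21.2 against 54.4 and 56.6 TPM in C17.2 (log2 0.97 ± 0.19, adjusted p = 0.0111) and at 44.7 and 42.4 against 52.8 and 34.7 TPM in C3.2. The FKBP2 call was lost without any of the 4 libraries of C17.2 (adjusted p = 0.099 to 0.18) or either parental library of C3.2 (0.053 and 0.054), and the MANF call without the second parental (0.082) or either resistant library (0.069 and 0.076) of C17.2. Of the translocon, the channel subunit SEC61B was at 35.2 and 32.7 against 50.2 and 52.0 TPM in C17.2 (log2 0.42, adjusted p = 0.00425), whereas SEC61A1, the pore itself, lay between 29.1 and 36.6 TPM in all libraries and passed in neither clone. In C3.2 SEC61B was at 51.0 and 49.2 against 53.5 and 56.5 TPM.

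The sensors among the 33 genes and XBP1 ran the other way, with 4 of 4 lower in C17.2, against 13.9% of all genes tested. The calls of ATF6 and ATF6B were fragile, as given below. PERK (EIF2AK3), a sensor outside the 33 genes, did not pass in C17.2 (log2 0.10, adjusted p = 0.373). ERN1, the IRE1 kinase and RNase that splices XBP1 mRNA, was at 10.9 and 9.92 TPM in parental and 1.92 and 2.69 TPM in resistant libraries of C17.2. This was the largest change of the 33 genes in either direction (log2 -1.90 ± 0.15 SE, 95% interval -2.27 to -1.53, adjusted p = 0.000484). In C3.2 ERN1 was at 2.71 and 2.01 TPM in parental and 2.42 and 1.85 TPM in resistant libraries, so the groups overlapped at the level of the C17.2 resistant cells. XBP1, the transcription factor that ERN1 activates, fell in both clones. It was at 107.6 and 100.4 against 84.9 and 88.4 TPM in C17.2 (log2 -0.42, adjusted p = 0.00094) and at 80.1 and 81.5 against 70.3 and 70.4 TPM in C3.2 (log2 -0.26, adjusted p = 0.0138). The fall in C3.2 was lost without either parental library of that clone (adjusted p = 0.085 and 0.066) and under every other scaling tried (0.056 to 0.085). Values are sums over transcripts of a gene, so spliced and unspliced XBP1 were not separated.

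ATF6, the membrane-bound factor that is cut in the Golgi, was at 10.6 and 10.4 against 9.11 and 8.87 TPM in C17.2 (log2 -0.35, adjusted p = 0.0173) and at 6.53 and 7.81 against 7.58 and 7.42 TPM in C3.2. Its paralogue ATF6B was at 48.7 and 45.3 against 45.4 and 47.1 TPM in C17.2 (log2 -0.18, adjusted p = 0.0494) and at 37.4 and 39.0 against 40.2 and 42.1 TPM in C3.2. The ATF6B groups overlapped in C17.2 before scaling and the call was lost under 12 of 17 alternatives, among them leaving out any of the 4 libraries of C17.2 (adjusted p = 0.14 to 0.17) or either parental library of C3.2 (0.082 and 0.083). The ATF6 call was lost without any of the 4 libraries of C17.2 (0.057 to 0.10) and on TPM as deposited (log2 -0.21, adjusted p = 0.10).

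The change itself differed between the clones for 15 of the 33 genes (limma interaction, adjusted p under 0.05), against 9.9% of all genes tested. For 14 genes the change in C17.2 was the more positive, and for ERN1 it was the more negative, by log2 1.75 (adjusted p = 0.00676). The largest positive differences were those of SDF2L1 (log2 1.52, adjusted p = 0.00979), CALR (1.16, adjusted p = 0.000546), HSP90B1 (1.07, adjusted p = 0.00151) and PDIA3 (0.99, adjusted p = 0.0186). Of these, the SDF2L1 difference was lost under 5 of 16 alternatives (adjusted p = 0.058 to 0.066) and the PDIA3 difference under 6 of 16 (0.071 to 0.091), all of them leaving out 1 library. Among genes with a mean of at least 10 TPM, 14% of all tested and 12 of the 24 genes of the set differed. For XBP1, lower in both clones, no difference was detected (log2 -0.16, 95% interval -0.30 to -0.02, adjusted p = 0.149), and for MANF the difference of 1.06 missed the threshold (adjusted p = 0.0566). Leaving out 1 library left 7 to 17 differences, with 7 and 8 without the first and second parental library of C17.2 and 8 and 9 without the first and second parental library of C3.2.

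The parental cells of the clones started from different levels. The summed scaled TPM of the 33 genes was 1310 ± 1.66 (SD, n = 2) in C17.2 parental cells, 1854 ± 17.4 in C17.2 resistant cells, 1814 ± 9.45 in C3.2 parental cells and 1809 ± 42.7 in C3.2 resistant cells. As a share of the TPM of protein-coding genes this was 0.329%, 0.495%, 0.432% and 0.463%. C17.2 parental cells were lowest by both measures. The other 3 groups lay close together by summed scaled TPM but were spread from 0.432% to 0.495% by share. Both C17.2 parental libraries were the lowest of all 8 for 18 of the 33 genes, against 14.7% of all tested genes, and for 17 of the 19 that rose in C17.2. They were the highest of all 8 for 6 of the 33, against 15% of all tested genes, and these were the 6 that fell. Clone and series of library numbers coincide in this comparison of levels, and the parental libraries of C17.2 enter both the levels and the changes. A call in C17.2 already sets its parental libraries below or above its resistant ones. The counts among genes that rose or fell were thus partly fixed by the calls. The same shares among all called genes were not taken.

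**Figure D3:**
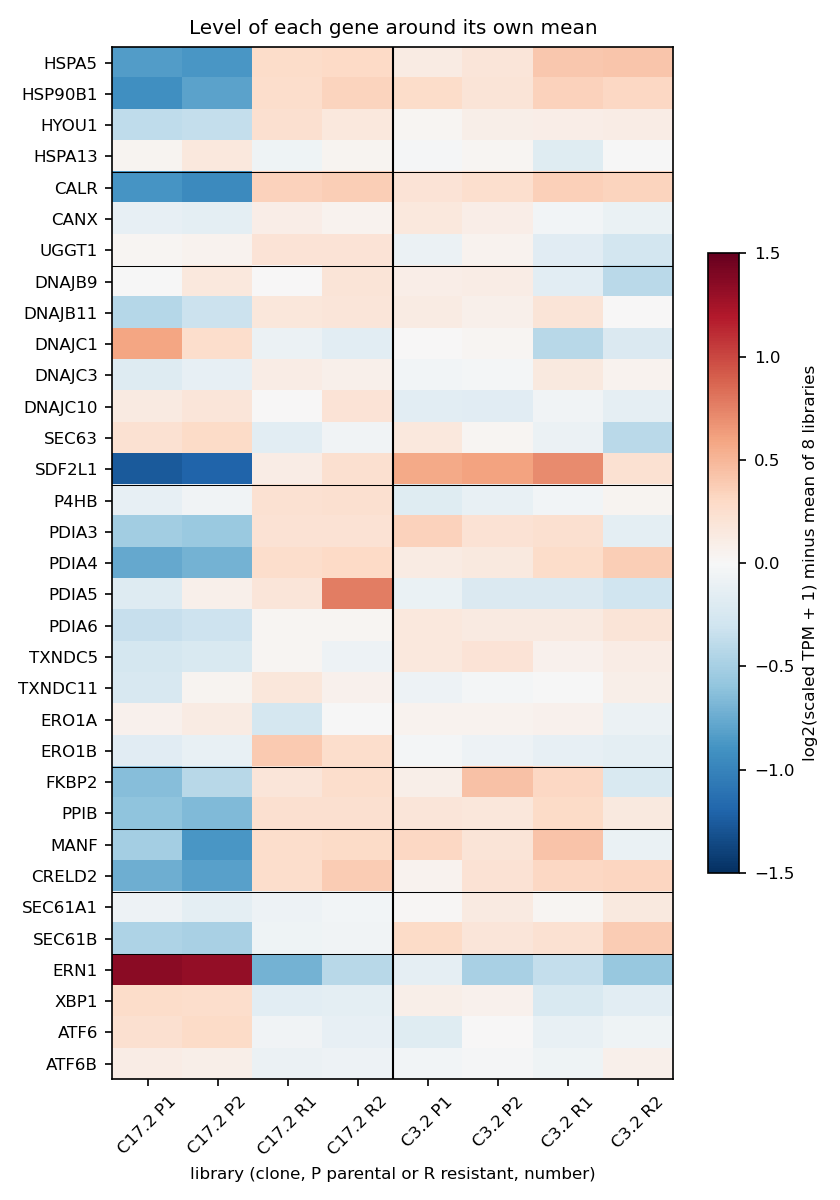
Level of each of the 33 genes in each of the 8 libraries, as log2(scaled TPM + 1) minus the gene's mean over the libraries (red higher, blue lower). Columns are libraries, parental (P) and resistant (R), with a line between the clones and lines between functional groups. The parental libraries of C17.2 hold most of the deep blue cells, 18 of the 33 genes being lowest there, and the deepest red, ERN1.

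A further 6 lists, named for known functions, set the chaperones beside other genes of ER folding, degradation and stress. Of the 80 genes listed, 74 were tested, and 15 were higher and 19 lower in C17.2 and 2 higher and 10 lower in C3.2. The background shares are 13.4% higher and 13.9% lower of all genes tested in C17.2 and 4.46% and 6.9% in C3.2. In the PERK and ATF4 arm 6 of 7 genes were lower in C17.2 and 3 of 7 in C3.2, and none was higher. In C17.2 its largest falls were those of CHAC1, a glutathione-degrading enzyme (log2 -3.83, adjusted p = 1.91e-05), TRIB3, a pseudokinase that restrains ATF4 (-3.51, adjusted p = 6.26e-06), and DDIT3 (CHOP), a stress-induced transcription factor (-2.09, adjusted p = 0.000278). In C3.2 CHAC1 (-2.69, adjusted p = 0.000207), ATF3 (-0.88, adjusted p = 0.00932) and ATF4 itself (-0.55, adjusted p = 0.000875) were lower. PERK (EIF2AK3) lay between 9.59 and 13.5 TPM in all libraries and passed in neither clone. Its activity was not measured, and whether PERK set the levels of this list was not tested. Both C17.2 parental libraries were the highest of all 8 for 6 of the 7 genes of this arm, against 15% of all tested genes. A lower call in C17.2 already sets its parental libraries above its resistant ones, so this count was partly fixed by the calls.

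Genes of ER-associated degradation, which returns misfolded proteins to the proteasome, were lower for 5 of 16 and higher for 1 of 16 in C17.2 and lower for 5 of 16 in C3.2, against 13.9% lower and 13.4% higher of all genes in C17.2 and 6.9% lower in C3.2. HERPUD1, which recruits the degradation complex, fell by 1.88 on the log2 scale in C17.2 (adjusted p = 5.41e-05) and by 0.36 in C3.2 (adjusted p = 0.0422), and EDEM1, which trims mannose from misfolded glycoproteins, fell by 1.42 in C17.2 (adjusted p = 2.06e-05) and by 0.69 in C3.2 (adjusted p = 0.000983). DERL3 fell by 0.51 in each clone (adjusted p = 0.0071 and 0.0174), and the ubiquitin ligase SYVN1 fell by 0.37 in C17.2 (adjusted p = 0.0108) and by 0.38 in C3.2 (adjusted p = 0.0232). In C17.2 the median log2 fold change was 0.33 for the 33 genes, -0.03 for the degradation list and -1.60 for the PERK and ATF4 arm.

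Over all genes tested in C17.2, 13.4% were higher and 13.9% lower. Translocation and signal peptide processing was higher for 6 of 15 genes and lower for 1 in C17.2. SEC61G, a channel subunit, was at log2 0.52 (adjusted p = 0.0158), the signal peptidase subunit SPCS3 at 0.43 (adjusted p = 0.00106) and SERP1 at -0.34 (adjusted p = 0.00429). Glycan attachment and trimming was higher for 5 of 12 and lower for 1, with DAD1, an oligosaccharyltransferase subunit, at 0.75 (adjusted p = 0.000618), MLEC, a glucose-binding lectin, at 0.48 (adjusted p = 0.00685) and PRKCSH, a glucosidase subunit, at -0.32 (adjusted p = 0.0141). The folding enzymes outside the 33 genes were split, with 3 of 19 higher and 5 lower in C17.2. Among them the peroxidase PRDX4 rose (log2 0.63, adjusted p = 0.00748) whereas TXNDC12 (-0.97, adjusted p = 0.00204) and ERP29 (-0.57, adjusted p = 0.00364) fell. Of 5 tested proteases and related factors of the UPR, only CREB3L2, a membrane-bound relative of ATF6, passed in C17.2 (-0.56, adjusted p = 0.000566). In C3.2 few genes of these lists passed, with 1 of 15 lower for translocation, 1 of 12 higher for glycan genes and 0 of 19 for folding enzymes. Of the 5 proteases and related factors 1 was higher and 1 lower, against 4.46% higher and 6.9% lower of all genes. The genes were SERP1 (log2 -0.33, adjusted p = 0.0132), DAD1 (0.58, adjusted p = 0.00502), CREB3L2 (-0.32, adjusted p = 0.0121) and MBTPS2, a protease that helps to free ATF6 (0.25, adjusted p = 0.0497).

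**Figure D4:**
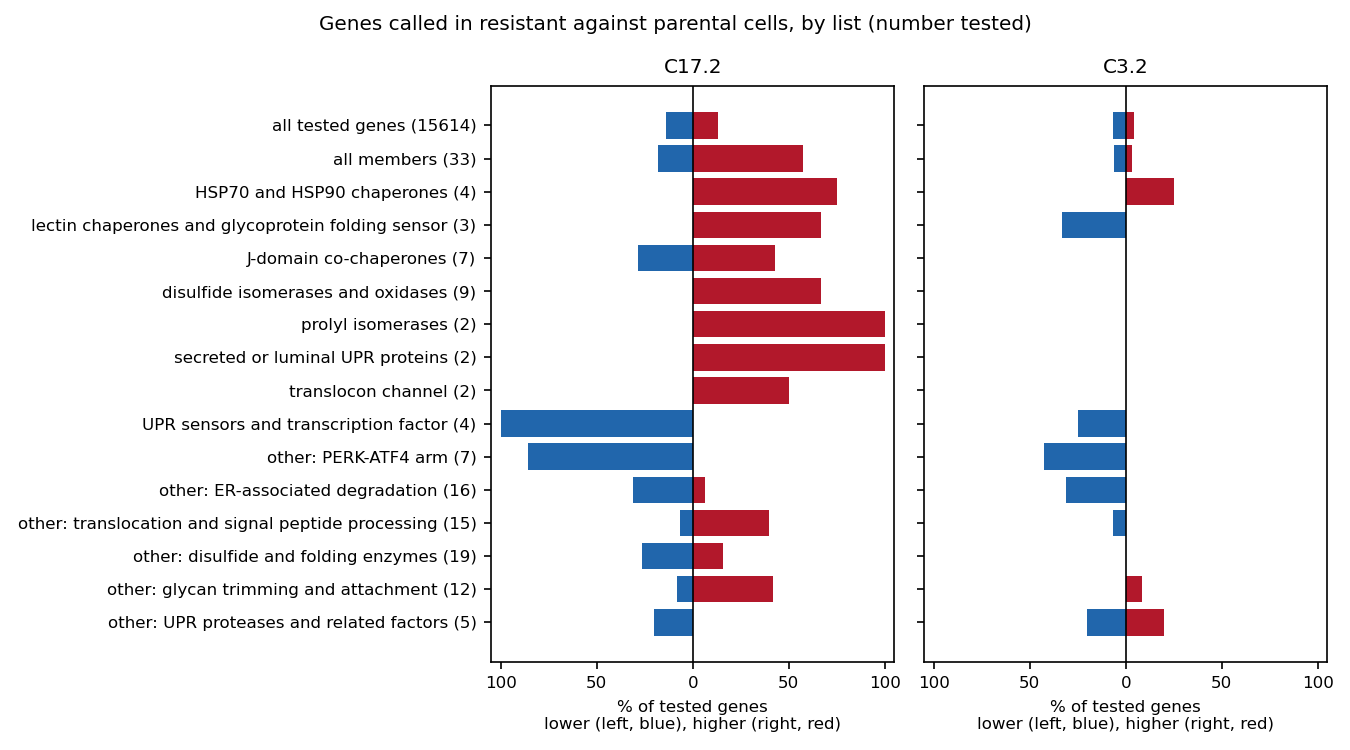
Share of tested genes that were lower (left, blue) or higher (right, red) in resistant than in parental cells at an adjusted p under 0.05, in C17.2 and C3.2, with the number of tested genes behind each bar. Over all tested genes in C17.2, 13.4% were higher and 13.9% lower. In C17.2 the HSP70 and HSP90, lectin, disulfide, prolyl, luminal and translocon bars point to the right alone, the J-domain bar points both ways (3 of 7 higher, 2 lower), and the bars of the 4 sensors and factors and of the PERK and ATF4 arm (6 of 7 lower) point to the left alone.

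The promoters of the set were searched for the elements through which UPR factors are known to act, in windows of 250 bases before to 50 after the start. Of the 33 genes 31 had a promoter in the RefSeq table (GRCh38.p14), DNAJC1 and PDIA3 being the others. The ER stress response element (ERSE), CCAAT and CCACG with any 9 bases between them, was found on either strand in 7 of the 31 promoters (22.6%) and in 22 of all 27305 promoters (0.0806%). These were HSPA5, HSP90B1, CALR, CANX, ERO1B and CRELD2, higher in C17.2, and XBP1, lower in both clones. The shorter ERSE-II, ATTGG and CCACG with any 1 base between them, was found in HYOU1 and SDF2L1 (6.45%) and in 15 of all promoters (0.0549%). The UPR element TGACGTG was found in HYOU1, where it overlaps an ERSE-II by 4 bases, DNAJC10 and TXNDC11 (9.68%, against 2.00% of all promoters), and TGATGCAA, an element that ATF4 binds, in none of the 31 (0.923% of all promoters). By the call in C17.2, an ERSE stood in 6 of 18 promoters of higher genes, 1 of 5 of lower genes and 0 of 8 of the rest. The genes were taken for their known functions and the elements for their known part in the UPR. These choices are linked, so the shares and the split by call are no independent test. A match gives the letters only, and binding was not measured.

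All ERSE and ERSE-II matches are printed because these elements were the rarest among all promoters. PDIA4, MANF, PPIB and FKBP2, which rose 1.68-fold to 2.02-fold in C17.2, held no exact match to either in the window searched. Matches that differ by a base, or that lie outside the window, were not searched for. Sequences run 5′ to 3′ on the strand of the gene, with the match in capitals. Those read as CCAAT before CCACG lie on the forward strand, and those that begin with CGTGG are the reverse complement.
HSPA5, chr9:125241371-125241429, minus strand: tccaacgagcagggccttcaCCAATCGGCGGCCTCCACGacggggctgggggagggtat
HSP90B1, chr12:103930211-103930239, plus strand: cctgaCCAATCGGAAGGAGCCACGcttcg
HSP90B1, chr12:103930316-103930344, plus strand: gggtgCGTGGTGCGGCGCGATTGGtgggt
CALR, chr19:12938364-12938422, plus strand: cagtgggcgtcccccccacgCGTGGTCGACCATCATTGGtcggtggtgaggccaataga
CANX, chr5:179698773-179698801, plus strand: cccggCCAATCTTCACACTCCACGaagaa
ERO1B, chr1:236282163-236282208, minus strand: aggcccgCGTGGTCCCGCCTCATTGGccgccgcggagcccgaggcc
CRELD2, chr22:49918534-49918592, plus strand: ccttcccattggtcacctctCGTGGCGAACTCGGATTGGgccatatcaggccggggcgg
HYOU1, chr11:119057360-119057410, minus strand: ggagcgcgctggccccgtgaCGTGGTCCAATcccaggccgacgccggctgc
HYOU1, chr11:119057254-119057304, minus strand: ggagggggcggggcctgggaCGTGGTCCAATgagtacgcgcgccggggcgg
SDF2L1, chr22:21642094-21642144, plus strand: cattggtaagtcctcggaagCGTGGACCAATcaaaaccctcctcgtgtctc
XBP1, chr22:28800583-28800641, minus strand: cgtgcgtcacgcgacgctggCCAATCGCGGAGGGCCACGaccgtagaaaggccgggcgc
The match of HSPA5 lay 66 to 48 bases before the start. HSP90B1 and HYOU1 held 2 matches each, and the HSP90B1 and CANX stretches lie within exons of other transcripts of those genes in the Gencode annotation.

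**Figure D5:**
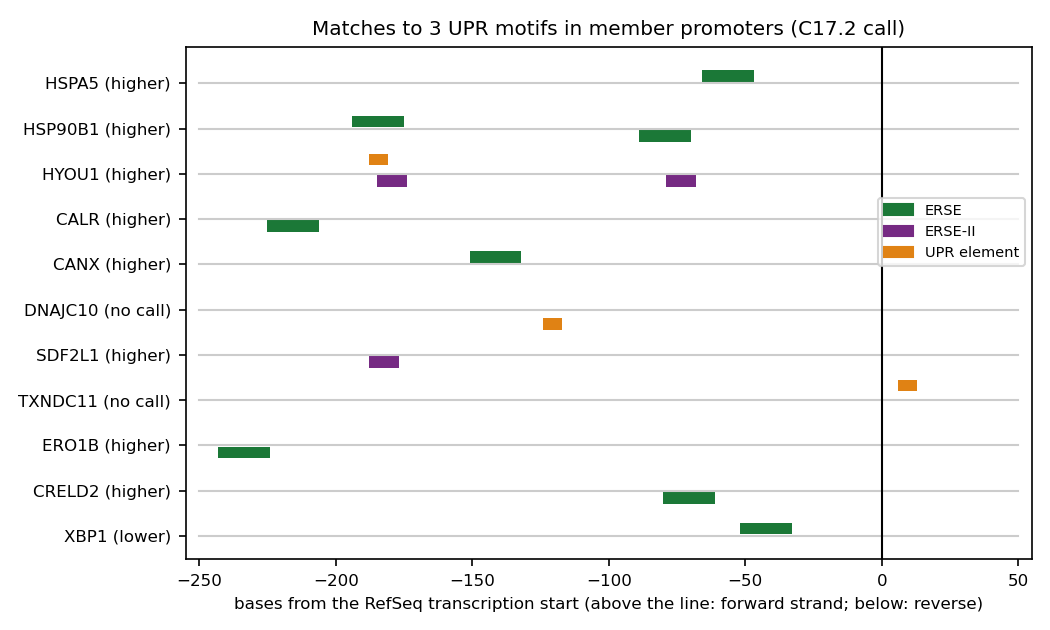
Position of each match in bases from the RefSeq start (0) for the 11 genes with a match to any of 3 elements, drawn above the line for the forward and below it for the reverse strand, with the call in C17.2 beside each name. All ERSE (green) and ERSE-II (purple) matches lie before the start. Of the 11 genes 8 were higher in C17.2, as were 18 of all 31 genes with a promoter.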

How the data were processed

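RNA was measured in 8 rRNA-depleted total RNA libraries, 2 for each of 4 groups. By the submitters' notes and the study's methods, the authors used Trim Galore 0.6.3 for trimming, STAR 2.7.9a for alignment (GRCh38.p13, Gencode 31) and RSEM 1.3.1 for gene levels. The deposited values are TPM, which keep no depth, so no counting error could be given, and low genes are the less precise. The strand setting of the quantification is not given in the sources used here, and the labels and the paper differ on single or paired reads.

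Scale factors for the libraries were taken from a trimmed mean, with 30% of the log2 ratios and 5% of the mean levels trimmed at each end. Genes with at least 1 TPM in at least 1 library were tested on log2(scaled TPM + 1) with limma 3.58.1 (R 4.3.3, intensity trend) in a single model of 4 groups, with Benjamini-Hochberg adjustment over 15614 genes, 2-sided, threshold 0.05. The study's own count-based weighting needs counts and was not used. The script was tested on simulated data. An exact permutation test of 2 against 2 libraries cannot go below p = 0.333. Groups were taken from the clone given in the labels. The contrasts were resistant against parental in each clone and the difference between those changes.

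The 33 genes and all other lists were chosen with earlier results of these data known. Values per library are given for genes past the threshold and for the sensors, and from each other list at most 3 genes past the threshold per clone, those with the largest change, are named. Alternatives were 9 processing choices (scaling, pseudocount, filter, trend, a model of the clone alone) and leaving out each of the 8 libraries. Promoters came from RefSeq (GRCh38.p14) and gene overlaps from Gencode 44. The 92 spike-in rows were at 0.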

Additional observations from a re-analysis of the deposited data

Results flagged for a closer look

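For 15 of the 33 genes the change from parental to resistant cells differed between the clones by the test of the difference itself (limma, adjusted p under 0.05; 9.9% of all genes tested). As log2 differences, C17.2 minus C3.2, the HSP70 and HSP90 chaperones gave 0.88 for HSPA5, 1.07 for HSP90B1 and 0.51 for HYOU1, and the lectins 1.16 for CALR and 0.40 for CANX. The co-chaperone DNAJB11 gave 0.55 and its partner SDF2L1 1.52. Among disulfide enzymes the differences were 0.99 for PDIA3, 0.83 for PDIA4, 0.34 for PDIA6, 0.32 for TXNDC5 and 0.55 for ERO1B. PPIB gave 0.83 and CRELD2 0.91. ERN1 was the single negative difference, at -1.75, and lost its call without the first parental library of C17.2 (log2 -1.73, adjusted p = 0.053). The calls of HSPA5, HSP90B1, HYOU1, CALR, PDIA4, PPIB and CRELD2 held under all 16 alternatives that could be fitted to this contrast. The calls were lost under 11 of 16 for TXNDC5, 8 for ERO1B, 6 each for DNAJB11 and PDIA3, 5 each for SDF2L1 and PDIA6 and 3 for CANX.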

How the results depend on the processing

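No paired analysis was possible because the labels give no replicate numbers shared by parental and resistant libraries of a clone. In C17.2 the number of the 33 genes called lower fell from 6 to 2 on TPM as deposited, which moved the median of all genes by 0.13, and to 3 with no filter. With that scaling 75.1% of all called genes were higher in C17.2, against 49.1% before, and 21 of the 33 were higher and 2 lower. With protein-coding scaling the share was 64.5%. In C3.2 the share of called genes that were higher was 39.3%, and 57.8%, 70.2% and 50.8% with deposited, protein-coding and quantile scaling. The genes called higher in C3.2, 1 of 33, numbered 2 on deposited TPM, 4 with protein-coding scaling, 2 with quantile normalization, 2 with a mean of at least 1 TPM and 0 in a model of that clone alone. Those called lower, 2 of 33, numbered 0 under the 3 other scalings and in the clone alone, and 1 with no filter and 1 without the trend. The clone alone gave 0 of 33 in either direction and 77 of all genes, against 1773, and no filter gave 1167. The cause was not tested.

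Leaving out each library in turn gave 2372 to 4545 genes called in C17.2, 326 to 1789 in C3.2 and 540 to 1748 differences. Of the 33 genes, 17 to 25 were called in C17.2 (14 to 19 higher, 2 to 6 lower), 0 to 7 in C3.2 (0 to 2 higher, 0 to 5 lower) and 7 to 17 differed.

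The sign turned only for values that had not passed a threshold. On deposited TPM these were HSPA13 (0.037) and DNAJC10 (0.11) in C17.2 and the differences of HSPA13 (0.072) and SEC63 (0.056). With protein-coding scaling they were DNAJC10 in C17.2 (0.033) and TXNDC5 (0.010), ERO1A (0.035), ERO1B (0.0017) and MANF (0.012) in C3.2. With quantile normalization it was the difference of SEC61A1 (-0.013), and with no filter DNAJB11 (-0.0061) and ATF6 (-0.0032) in C3.2 and the difference of HSPA13 (0.0059). Leaving out 1 library turned the sign, with log2 ranges, of DNAJB9 (-0.062 to 0.12) and DNAJC10 (-0.14 to 0.046) in C17.2, of DNAJB11 (-0.098 to 0.098), SEC61A1 (-0.044 to 0.068), ERN1 (-0.32 to 0.023), ATF6 (-0.092 to 0.098), PPIB (-0.029 to 0.11), SDF2L1 (-0.36 to 0.13), PDIA6 (-0.011 to 0.048), ERO1A (-0.14 to 0.0075), FKBP2 (-0.49 to 0.044), MANF (-0.35 to 0.17), SEC61B (-0.0084 to 0.14) and ATF6B (-0.029 to 0.11) in C3.2 and of the differences of TXNDC11 (-0.017 to 0.26), HSPA13 (-0.11 to 0.073), SEC61A1 (-0.021 to 0.092) and SEC63 (-0.19 to 0.12).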
